A study of Mus musculus with 5 samples.

Results

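The immunoglobulin heavy chain and kappa light chain constant loci were examined through RNA polymerase II occupancy in 5 mouse tissues. The loci were taken as 2 windows of the deposited coordinates, chromosome 12 from 114480000 to 114700000 for the heavy chain genes (Igh, with Ighm and Ighd) and chromosome 6 from 70640000 to 70720000 for the kappa gene (Igkc). They were selected on read counts of these same libraries, for their excess in spleen over lung, so the levels given here describe the loci and no test is attached to them. Cut into 1 kb bins, the Igh window held 220 bins and the Igk window 80, together 300 of the 2641884 bins that span the listed chromosomes. The groups were freshly dissected spleen, lung, brain, kidney and liver of adult FVB mice, for which the labels name no mutation and no treatment, each represented by 1 library of chromatin immunoprecipitated with an antibody against RNA polymerase II. There was no replicate, no input library and no test between tissues, and the intervals given are 95% exact binomial intervals that cover counting error only. How many animals gave each gram of tissue is not stated in the labels, and markers of the tissues were not checked because no gene annotation of the files' build was used.

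Antibody genes are assembled in B lymphocytes, which join V, D and J segments (heavy chain) or V and J segments (kappa chain) and transcribe the joined segment together with a constant gene downstream. Ighm encodes the constant part of IgM, the first class a B cell makes, and Ighd that of IgD, which mature naive B cells make from the same primary transcript by alternative splicing and termination. Igkc encodes the constant part of the kappa light chain, the more common light chain in mice. An intronic enhancer between the J segments and Ighm, a regulatory region downstream of Igha, and enhancers inside and downstream of the kappa locus act in B cells and plasma cells. Spleen is rich in B cells, while lung carries lymphocytes in its blood vessels and tissue.

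In the RefSeq gene table the constant genes on chromosome 12 follow one another, with rising coordinate, as Igha, Ighe, Ighg2c, Ighg2b, Ighg1, Ighg3, Ighd and Ighm, and the J segments Ighj4 to Ighj1 come next. On chromosome 6 the order is Igkj1 to Igkj5 and then Igkc. That table is on another assembly, so it was used for names and order, and bins are given by deposited position without a gene assigned to them. Ighg genes are related paralogues and switch sequences are repetitive, so short reads from stretches they share may be split between copies or missing. In the Igh window 16 bins, 7.27%, held no read in any tissue, the longest stretch running over 5 bins from 114584001 to 114589000. In the Igk window 3 bins, 3.75%, were empty. Both shares were below the 8.74% of all bins of the genome.

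Spleen held the most polymerase reads in both windows. In the Igh window 3572 reads were counted in spleen, 1123 in lung, 566 in brain, 822 in kidney and 1069 in liver. These were 0.0269% of the reads of the spleen library, 0.0104% of those of lung, 0.00550% of those of brain, 0.00596% of those of kidney and 0.00714% of those of liver. In the Igk window the counts were 1046 in spleen, 383 in lung, 261 in brain, 360 in kidney and 383 in liver. Whether spleen held more cells with polymerase on these genes or more polymerase per cell cannot be told apart in whole tissue.

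After scaling on peak regions well read in every tissue, the Igh window held 5359 normalised reads in spleen and 997 in lung, a ratio of 5.37 (5.02 to 5.75). The Igk window held 1569 in spleen and 340 in lung, a ratio of 4.61 (4.10 to 5.20). These ratios depend on the scaling. With scaling by total reads they were 2.60 (2.43 to 2.78) for Igh and 2.23 (1.98 to 2.51) for Igk. Peak-region scaling put spleen above lung over most of the genome, with a median ratio of 2.51 over 220 kb stretches and 2.57 over 80 kb stretches. Relative to these medians, a comparison added after the data were seen and one that no scaling alters, the Igh window was 2.14-fold and the Igk window 1.80-fold higher in spleen. Of 11424 stretches of 220 kb with at least 100 spleen reads, 0.455% reached 4-fold, and 5 had a ratio at least as high as the Igh window. Of 31004 stretches of 80 kb, 0.916% reached 4-fold and 51 were at least as high as the Igk window. The stretches were not cleared of the loci, and the Igk window is itself counted among the 51. Both windows were chosen for this contrast, so their place among the stretches is a description. With total-read scaling, 0.385% of the longer stretches and 0.587% of the shorter ones reached 2-fold, as both windows did.

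Among the other tissues the order of normalised Igh reads was lung 997, liver 921, kidney 758 and brain 552. Lung and liver did not separate beyond counting error, at 1.08 (0.995 to 1.18), while lung was above kidney and kidney above brain. In the Igk window lung, kidney and liver lay at 340, 332 and 330 normalised reads and did not separate, and brain was lower at 254. With total-read scaling lung was above liver in both windows, 1.45-fold (1.33 to 1.58) in Igh and 1.38-fold (1.19 to 1.59) in Igk, while brain and kidney did not separate in either, at 0.922 (0.827 to 1.03) and 0.971 (0.825 to 1.14).

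**Figure D1:**
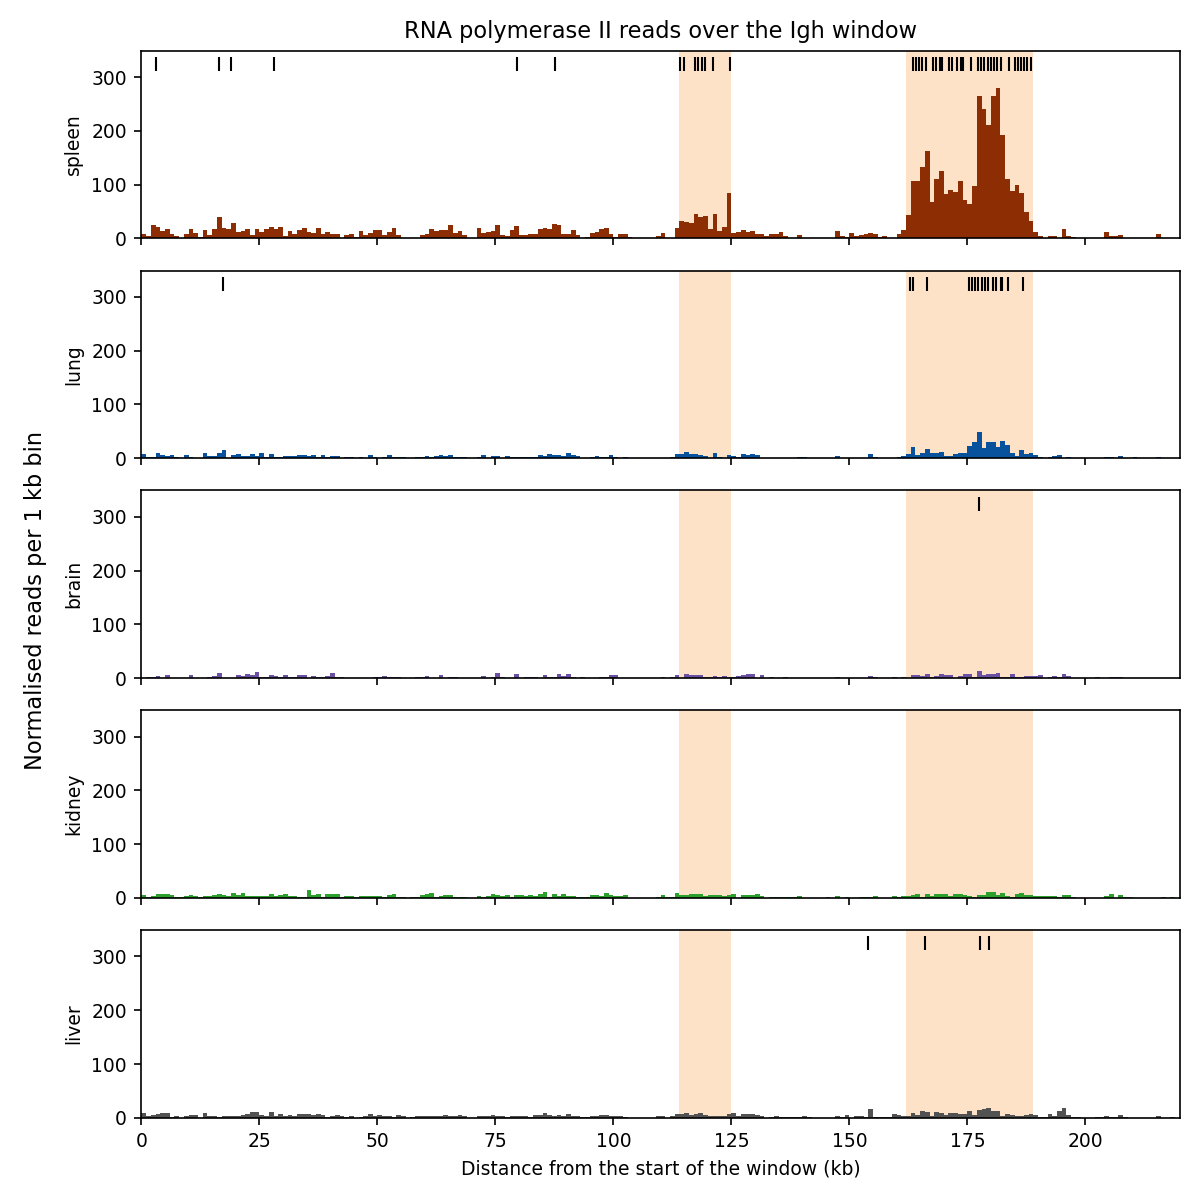
Normalised reads per 1 kb bin across the 220 kb Igh window, in spleen, lung, brain, kidney and liver from top to bottom on one scale. Black ticks are the authors' peaks (44 in spleen, 17 in lung, 1 in brain, 0 in kidney, 4 in liver), and shading marks the 11 kb and 27 kb blocks where spleen reads were dense. The tall spleen signal lies in the 27 kb block, and lung has a lower rise in the same place.

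Within the Igh window the spleen reads were concentrated in 1 stretch. Of the 220 bins, 35 held at least 20 spleen reads, and joining these across gaps of up to 2 bins gave a 27 kb block from 114642001 to 114669000 and an 11 kb block from 114594001 to 114605000. The remaining bin of this depth, from 114496001 to 114497000, held 27 reads in spleen and 12 in lung. The 27 kb block makes up 12.3% of the window and held 2244 spleen reads, 492 lung reads, 139 brain reads, 169 kidney reads and 262 liver reads. That is 62.8% (61.2% to 64.4%) of the window's reads in spleen, 43.8% (40.9% to 46.8%) in lung, 24.6% (21.1% to 28.3%) in brain, 20.6% (17.8% to 23.5%) in kidney and 24.5% (22.0% to 27.2%) in liver. Lung thus lay between spleen and the other 3 tissues, and its interval did not overlap those of brain, kidney and liver. The spleen share is high by construction because the block was drawn on spleen reads, so its distance from lung is a description.

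Shares within a library need no scaling between libraries, and the block can be set against the rest of its own window. Such values still depend on how far each immunoprecipitation enriched over background, which was not measured without an input library. Read density in the 27 kb block over that outside the blocks was 14.2 (13.2 to 15.3) in spleen, 5.91 (5.23 to 6.68) in lung, 2.43 (1.99 to 2.96) in brain, 1.93 (1.61 to 2.29) in kidney and 2.42 (2.09 to 2.79) in liver. The block was drawn on spleen reads, so the spleen value is high by construction, whereas the values of the other 4 tissues did not enter that choice. All 4 were above 1, lung the most, though the 16 empty bins of the window all lay outside the blocks and lower the density there. The rise in spleen was 2.41 times that in lung (2.08 to 2.78), 5.85 times that in brain (4.73 to 7.25), 7.38 times that in kidney (6.11 to 8.94) and 5.89 times that in liver (5.01 to 6.93). The 114 kb below the 11 kb block held 2.46 reads per kb in brain, 4.17 in kidney and 4.53 in liver. In the 27 kb block these tissues held 5.15, 6.26 and 9.70 reads per kb. Outside the blocks the window still had a spleen over lung ratio of 3.20 (2.89 to 3.55) with peak-region scaling and 1.55 (1.40 to 1.72) with total-read scaling, above the genome-wide medians of 2.51 and 1.21 for 220 kb stretches.

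**Figure D2:**
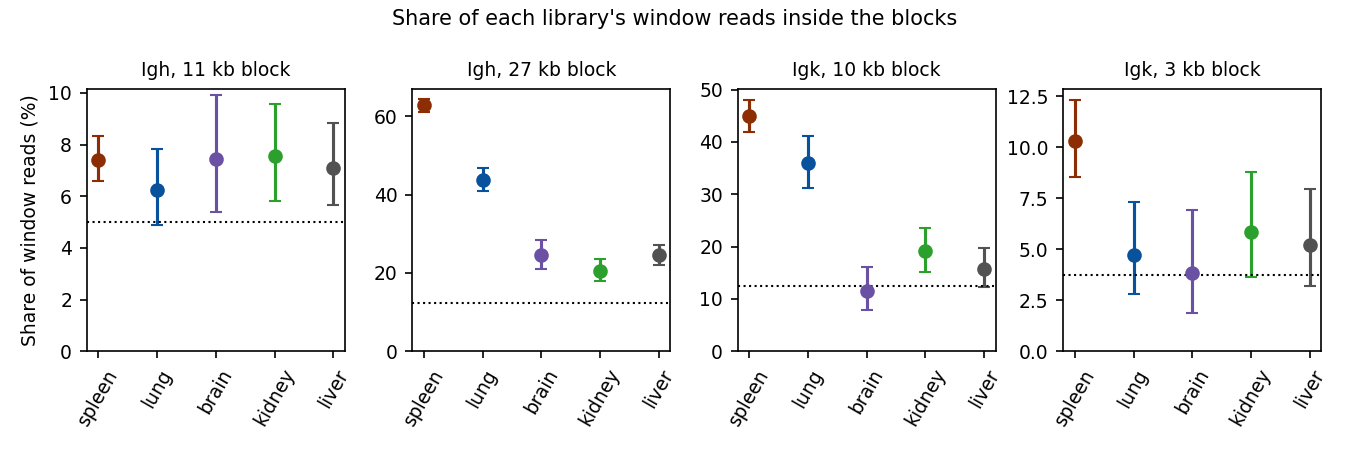
Share of each library's window reads that fell in each block, in percent, for spleen, lung, brain, kidney and liver. Points are single libraries, bars are 95% exact binomial intervals, and the dotted line is the share of the window's length; in the 27 kb Igh block spleen is at 62.8%, lung at 43.8% and the other tissues between 20.6% and 24.6%.

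The 5 bins with the most spleen reads were neighbours, from 114657001 to 114662000, inside the 27 kb block. The highest, from 114661001 to 114662000, held 186 reads in spleen, 23 in lung, 10 in brain, 6 in kidney and 14 in liver, which is 13.7-fold (8.84 to 22.1) higher in spleen than in lung. Next came the bin from 114660001, with 177 reads in spleen and 34 in lung, 8.80-fold (6.07 to 13.1). The bin from 114657001 held 176 reads in spleen, 54 in lung, 13 in brain, 5 in kidney and 17 in liver. It was the highest bin of lung and of brain too, and its spleen over lung ratio, 5.51 (4.04 to 7.62), was below that of the bin beside it from 114658001, 12.9 (8.14 to 21.4), with 160 reads in spleen and 21 in lung. The fifth, from 114659001, held 140 reads in spleen and 35 in lung, 6.76-fold (4.64 to 10.1), and was the highest bin of liver with 22 reads. Kidney alone had its highest bin elsewhere, from 114515001 to 114516000, with 8 reads in spleen and 17 in kidney.

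The bin from 114657001 to 114658000 was the only bin of both windows with an authors' peak in at least 4 tissues. The peaks lay at 114657356 and 114657956 in spleen, 114657286 in lung, 114657361 in brain and 114657646 in liver. Within 250 bp of the brain position 85 reads were counted in spleen, 27 in lung, 9 in brain, 4 in kidney and 11 in liver. The brain peak was the only one of that tissue in the Igh window and lay 5 bp from a spleen peak.

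Spleen over lung ratios rose and dipped along the block. The largest among bins outside the top 5 were 25.3-fold (9.40 to 96.0) from 114651001 to 114652000, with 60 reads in spleen and 4 in lung, 22.3-fold (9.09 to 71.0) from 114665001 to 114666000, with 66 in spleen and 5 in lung, and 18.6-fold (7.50 to 59.5) from 114650001 to 114651000, with 55 in spleen and 5 in lung. The lowest inside the block were 2.79-fold (1.68 to 4.74) from 114655001, with 43 reads in spleen and 26 in lung, 2.96-fold (1.39 to 6.59) from 114668001, with 21 in spleen and 12 in lung, and 3.14-fold (2.05 to 4.88) from 114656001, with 65 in spleen and 35 in lung. Intervals of the dip at 114655001 and of the bin from 114651001 did not overlap, though both were singled out after their values were seen. On the low-coordinate side of the dip, 11 of the 13 bins held at most 13 lung reads, while the spleen bins there held 29 to 108.

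**Figure D3:**
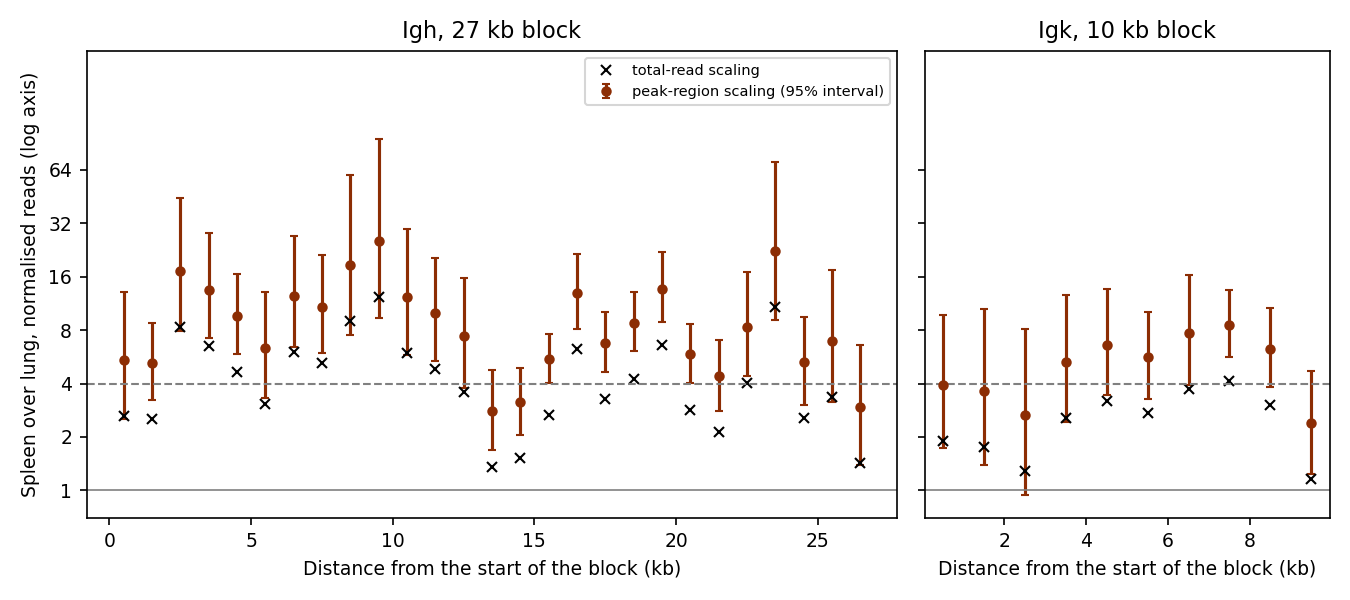
Ratio of normalised reads, spleen over lung, for each 1 kb bin of the 27 kb Igh block (left) and the 10 kb Igk block (right), on a log axis against distance from the start of the block in kb. Filled points use peak-region scaling with 95% exact intervals, and crosses use total-read scaling. The dashed line is 4-fold and the solid line is 1. In the Igh block, bins dip below 4-fold between 13 and 15 kb, at 2.79 and 3.14, and in the last bin, at 2.96.

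Divided into equal stretches of 9 kb, the 27 kb block had 27.8% (26.0% to 29.7%) of its spleen reads in the first, 36.6% (34.6% to 38.6%) in the middle and 35.6% (33.6% to 37.6%) in the last. In lung these shares were 22.2% (18.6% to 26.1%), 41.9% (37.5% to 46.4%) and 36.0% (31.7% to 40.4%). In the first stretch the spleen share was the higher, with intervals that met only at their ends, and in the other stretches the intervals overlapped more widely. The median read position was 15.8 kb from the start of the block in both spleen and lung. Liver had 43.5% (37.4% to 49.8%) in the middle and 26.0% (20.8% to 31.7%) in the last stretch.

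Counted by size of fold, 30 of the 35 Igh bins with at least 20 spleen reads were at least 4-fold higher in spleen than lung. Of all 20106 bins of the genome with at least 20 spleen reads, 18% passed the same mark. The windows were chosen on this contrast, so the difference from that background is a description. The median log2 ratio was 2.80 over the 35 Igh bins and 0.80 over all 20106. With total-read scaling, 16 of the 35 bins reached 4-fold, against 4.52% of all bins. The same 30 and 16 held when 4-fold was required over each of the other 4 tissues, against 7.25% and 0.821% of all bins. The longest unbroken run of such bins was 13 kb, from 114642001 to 114655000. Just inside the mark was the bin from 114663001, at 4.41-fold, and just outside it the bin from 114496001, at 3.80-fold.

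The 11 kb block from 114594001 to 114605000 was weaker. It held 265 reads in spleen, 70 in lung, 42 in brain, 62 in kidney and 76 in liver. Spleen was 6.40-fold (4.90 to 8.45) above lung with peak-region scaling and 3.09-fold (2.37 to 4.08) with total-read scaling. Its density over that outside the blocks was 4.12 (3.59 to 4.72) in spleen, 2.06 (1.59 to 2.65) in lung, 1.80 (1.28 to 2.49) in brain, 1.74 (1.31 to 2.26) in kidney and 1.72 (1.34 to 2.18) in liver. The empty bins lower the density outside the blocks here too, and the block was drawn on spleen reads, so its spleen values are high by construction. In the 11 kb block lung did not stand apart from brain, kidney and liver, unlike in the 27 kb block. Spleen had 8 authors' peaks in this block and the other tissues none.

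The bin at the high end of the 11 kb block, singled out after its values were seen, held the most spleen reads of that block. From 114604001 to 114605000 spleen held 56 reads, lung 6, brain 3, kidney 5 and liver 9, a spleen over lung ratio of 15.8 (6.81 to 44.8). Of the spleen reads in this bin, 28 of 56 (50%, 36.3% to 63.7%) lay in the 200 bp from 114604671 to 114604870, where lung had 0 reads. In the highest bin of the 27 kb block the densest 200 bp held 23.7% (17.7% to 30.4%) of the spleen reads. An Igk bin of similar depth, from 70694001 with 54 spleen reads, had 42.6% (29.2% to 56.8%) in its densest 200 bp. The stretches were placed where spleen reads were densest, so these shares are high by construction, and more so in bins with few reads. The highest bin of the 27 kb block held 186 spleen reads, so its share is not comparable with the others. The intervals do not cover the choice of stretch.

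The low-coordinate end of the window, the side on which Igha lies in the gene order, held 845 spleen reads and 443 lung reads over the 114 kb below the 11 kb block. That is 7.41 reads per kb in spleen and 3.89 in lung. Between the blocks the density was 4.19 reads per kb in spleen and 2.05 in lung, and above the 27 kb block 2.03 in spleen and 1.35 in lung. Apart from the bin from 114496001 no bin below 114594001 reached 20 spleen reads. The authors listed spleen peaks there at 114483141, 114496476, 114499076, 114508026, 114559516 and 114567731, and a lung peak at 114497246.

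**Figure D4:**
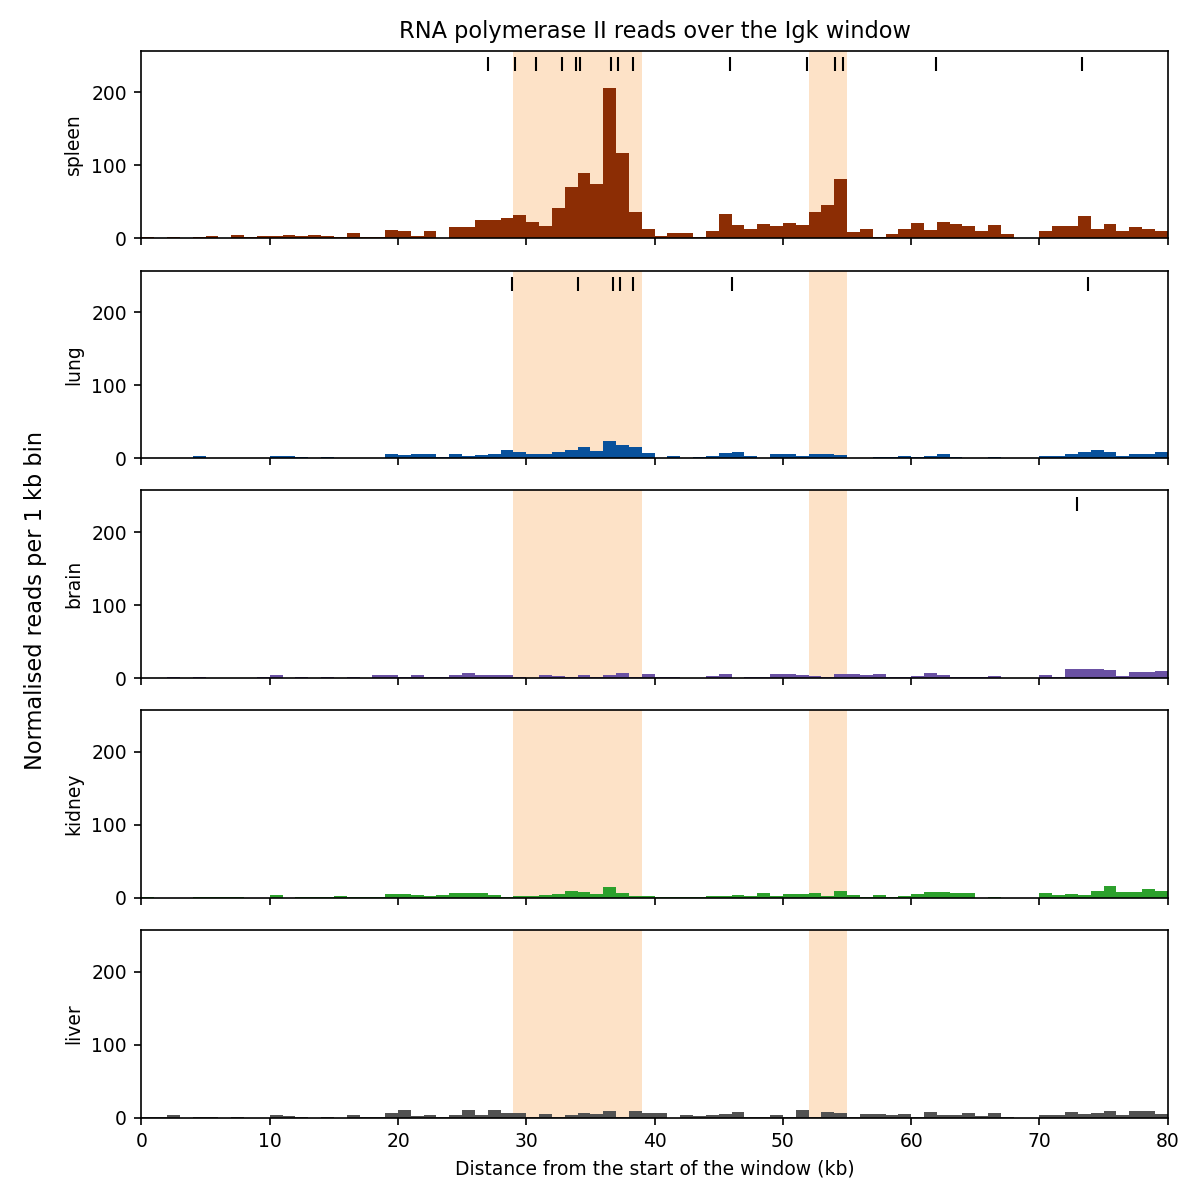
Normalised reads per 1 kb bin across the 80 kb Igk window, in spleen, lung, brain, kidney and liver from top to bottom on one scale. Black ticks are the authors' peaks (15 in spleen, 7 in lung, 1 in brain, 0 in kidney and liver), and shading marks the 10 kb and 3 kb blocks; spleen and lung rise in the 10 kb block, and spleen has another rise in the 3 kb block.

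In the Igk window 13 of the 80 bins held at least 20 spleen reads. They formed a 10 kb block from 70669001 to 70679000, a 3 kb block from 70692001 to 70695000 and 2 single bins, from 70685001 and from 70713001. The 10 kb block held 471 reads in spleen, 138 in lung, 30 in brain, 69 in kidney and 60 in liver. It is 12.5% of the window and took 45.0% (42.0% to 48.1%) of the window's reads in spleen, 36.0% (31.2% to 41.1%) in lung, 11.5% (7.89% to 16.0%) in brain, 19.2% (15.2% to 23.6%) in kidney and 15.7% (12.2% to 19.7%) in liver. As at Igh, lung lay above brain, kidney and liver with no overlap of intervals. Lung was below spleen, whose share is high by construction because the block was drawn on spleen reads.

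Density in the 10 kb block over that outside the blocks was 6.76 (5.93 to 7.70) in spleen, 4.07 (3.27 to 5.05) in lung, 0.910 (0.599 to 1.34) in brain, 1.71 (1.29 to 2.24) in kidney and 1.33 (0.988 to 1.76) in liver. In brain and liver no rise was detectable at this depth. The rise in spleen was 1.66 times that in lung (1.29 to 2.14), 7.43 times that in brain (4.93 to 11.5), 3.95 times that in kidney (2.92 to 5.37) and 5.09 times that in liver (3.73 to 7.03). Spleen was 5.77-fold (4.76 to 7.02) above lung over this block with peak-region scaling and 2.79-fold (2.30 to 3.39) with total-read scaling. The block was drawn on spleen reads, so its spleen values are high by construction.

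The tallest Igk bin, from 70676001 to 70677000, held 137 reads in spleen, 27 in lung, 5 in brain, 17 in kidney and 11 in liver. Spleen was 8.57-fold (5.64 to 13.5) above lung there, and the bin held 13.1% (11.1% to 15.3%) of the spleen reads of the window and 7.05% (4.70% to 10.1%) of the lung reads. It was also the highest bin of lung. The bin beside it, from 70677001, held 78 reads in spleen and 21 in lung, 6.28-fold (3.84 to 10.7). On the other side the reads fell off over several bins, with 50 in spleen and 11 in lung from 70675001, 60 and 18 from 70674001, and 47 and 12 from 70673001. On the high-coordinate side the bin from 70678001 held 24 reads in spleen and 17 in lung, 2.39-fold (1.23 to 4.73), and the one after it 9 in spleen and 8 in lung.

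Density in the 3 kb block over that outside the blocks was 5.16 (4.15 to 6.38) in spleen and 1.77 (1.03 to 2.86) in lung. In brain it was 1.01 (0.478 to 1.89), in kidney 1.74 (1.06 to 2.71) and in liver 1.47 (0.888 to 2.32). The block held 108 reads in spleen, 18 in lung, 10 in brain, 21 in kidney and 20 in liver. Its share of the window's reads was 10.3% (8.55% to 12.3%) in spleen and 4.70% (2.81% to 7.33%) in lung, and the share of lung overlapped those of brain, kidney and liver. Spleen was 10.1-fold (6.12 to 17.8) above lung with peak-region scaling and 4.90-fold (2.96 to 8.58) with total-read scaling. Relative to the rest of the window the rise in spleen was 2.92 times that in lung (1.71 to 5.23). That interval overlapped the one for the 10 kb block, 1.66 (1.29 to 2.14). The 3 kb block was also drawn on spleen reads, so its spleen over lung ratios are high by construction. Its highest bin, from 70694001 to 70695000, held 54 reads in spleen, 5 in lung, 6 in brain, 11 in kidney and 8 in liver, and at 18.2-fold (7.36 to 58.5) it had the largest spleen over lung ratio among the Igk bins with at least 20 spleen reads. The other bins of the block held 30 reads in spleen and 7 in lung, 7.24-fold (3.12 to 19.5), and 24 in spleen and 6 in lung, 6.76-fold (2.69 to 20.2).

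Of the 13 Igk bins with at least 20 spleen reads, 10 were at least 4-fold higher in spleen than lung, set against 18% of such bins over the genome. With total-read scaling 2 of the 13 reached 4-fold, against 4.52% of all bins. Their median log2 ratio was 2.65 with peak-region scaling and 1.60 with total-read scaling, where the medians over all 20106 bins were 0.80 and -0.25. The longest run was 6 kb, from 70672001 to 70678000. Just inside the mark was the bin from 70685001, at 4.65-fold, and just outside it the bin from 70669001, at 3.94-fold. Brain had no single highest bin, since those from 70712001, 70713001 and 70714001 each held 13 brain reads, against 11, 20 and 9 in spleen for the same bins. Liver also had 3 bins tied at 13 reads, from 70660001, 70667001 and 70691001, where spleen held 7, 17 and 12. The highest bin of kidney, from 70715001, held 13 reads in spleen and 18 in kidney.

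The authors' peak lists come from the same libraries, and the windows were chosen for their excess in spleen over lung. The peak numbers therefore describe the loci and are no separate support. Spleen had the fewest peaks in the genome, 31594, but the most in both windows. In the Igh window 44 peaks were listed in spleen, 17 in lung, 1 in brain, 0 in kidney and 4 in liver, and in the Igk window 15, 7, 1, 0 and 0. Per 100 kb this was 20 in spleen and 7.73 in lung for Igh and 18.8 in spleen and 8.75 in lung for Igk, where the genome averages were 1.20 in spleen and 2.76 in lung. The 27 kb block held 30 of the spleen peaks and 16 of the lung peaks. Spleen peaks in the Igh window followed each other at a median of 800 bp, and those of lung at 775 bp, where the medians over the genome were 15510 bp in spleen and 3000 bp in lung.

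Closeness of lung and spleen peaks was counted within 250 bp. Of the 17 lung peaks in the Igh window 12 (70.6%) lay that close to a spleen peak, and in the Igk window 5 of 7 (71.4%) did, against 17.8% of all 72971 lung peaks. Spleen peaks were dense here, and 55.7% of all positions in the 27 kb block and 37.3% of those in the 10 kb block lay within 250 bp of one, so nothing is read from these shares. Taken from the spleen list, 12 of 44 Igh peaks (27.3%) and 6 of 15 Igk peaks (40%) lay within 250 bp of a lung peak, against 41.2% of all spleen peaks. Of all positions, 29.1% in the 27 kb block and 21.15% in the 10 kb block lay that close to a lung peak. No position of the 11 kb and 3 kb blocks did, and nothing is read from these shares either. Reads within 250 bp of the spleen peaks of the Igh window numbered 9 to 122 in spleen, with a median of 34, and the median spleen over lung ratio there was 7.32. At the Igk spleen peaks the reads numbered 10 to 66, with a median of 18, and the median ratio was 5.07. These positions were listed from the spleen reads themselves, so ratios at them are high by construction. At the positions listed for lung the median spleen over lung ratio was 5.63 in the Igh window and 5.35 in the Igk window.

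Strand and repeated reads were measured beside these results. In the Igh window 50.7% (49.1% to 52.4%) of spleen reads and 53.2% (50.2% to 56.1%) of lung reads lay on the plus strand. In the Igk window these shares were 54.9% (51.8% to 57.9%) in spleen and 46.5% (41.4% to 51.6%) in lung. Reads that repeated the position and strand of another made up 9.91% (8.95% to 10.9%) in spleen and 8.55% (6.98% to 10.3%) in lung at Igh, against 8.52% and 7.16% in the whole libraries. Counting each position and strand once, the spleen over lung ratio was 5.29 at Igh and 4.66 at Igk.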

How the data were processed

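Reads and peaks of 5 ChIP-seq libraries were used as the authors deposited them: Bowtie is named as aligner, per the submitters' processing notes. Its version and settings, the peak caller and the build behind the positions are not stated in the labels; the rule that sets the windows takes the coordinates as mm9. The libraries held 13283124 reads in spleen, 10846976 in lung, 10292262 in brain, 13786536 in kidney and 14964934 in liver after 4 to 15 lines with lengths outside 34 to 36 bases were left out. Reads were counted at their 5′ end in 1 kb bins. Scaling factors were medians of ratios over 8222 merged peak regions that each library covered with 20 or more reads: 0.666 in spleen and 1.13 in lung, against 1.06 and 0.867 from total reads.

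A bin was called at 20 or more spleen reads and a normalised ratio of at least 4, lung counts under 3 set to 3. Ratios have exact conditional binomial intervals, and double ratios exact conditional intervals of an odds ratio. Reads are not independent molecules, so intervals cover counting error at most. Bins named are the 5 highest in spleen, the 3 next largest ratios with at least 20 spleen reads, the highest of each other tissue (ties included), and those with peaks in at least 4 tissues; bins named beyond these were chosen after their values were seen, as were the blocks. The windows, rules and alternatives were chosen with earlier results of these data known. Without an annotation of the files' build, lists of cell type markers and other B cell genes were not analysed here. RefSeq names came from assembly GRCm38.p6, which lists all 3 of Ighm, Ighd and Igkc. Tools were Python 3.11.15, SciPy 1.17.1, NumPy 2.4.6, Matplotlib 3.10.9 and pandas 2.3.3.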

Additional observations from a re-analysis of the deposited data

How the results depend on the processing

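Of 55 values recomputed, 27 stayed within the main interval or within 1.5 times the main count, and every spleen over lung ratio of reads or peaks stayed above 1. For spleen over lung, the Igh ratio of 5.37 was 2.60 with total reads, 2.64 with libraries thinned to the smallest, 3.94 with scaling on flanks of 500 kb and 2.14 relative to the median stretch; the Igk ratio of 4.61 was 2.23, 2.20, 1.97 and 1.80 in the same order, and 8.22 with flank density subtracted. Thinned libraries were all of the same size and were not scaled further. Thinning thus repeats total-read scaling with sampling noise and is no separate check, though both count among the 55 values. Flank subtraction gave no Igh value, since lung held 5.10 reads per kb in the window and 6.73 in the flanks. Over the next highest tissue, the total-read and thinned values were the same in both windows and the flank-scaled value at Igk too, since lung was next; liver was next at Igh with flank scaling, at 3.09. At Igk kidney was next with 1 read per position, at 4.46, and liver without the highest bin, at 4.26. Flank subtraction and the median stretch were not run for the next highest tissue. The 30 Igh bins at 4-fold became 16 with total reads, 15 thinned, 16 at 8-fold, 59 with at least 10 reads and 67 with no minimum. The 10 Igk bins became 2, 2, 2, 20 and 24, and 1 with flank scaling. Among these alternatives the share of all bins of the genome was counted only with total reads, at 4.52%. The other counts have no background beside them and show only how the number moves with the setting. As shares of each tissue's own list, spleen over lung peak numbers were 5.98 at Igh and 4.95 at Igk, against 2.59 and 2.14. No paired analysis was possible because each tissue had 1 library. Bins with few lung reads have wide intervals, which limits single ratios.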

Other observations

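Some bins of the Igh window were highest in liver rather than spleen; they were singled out after their values were seen and no explanation was tested. From 114634001 to 114635000 spleen held 7 reads, lung 8, brain 4, kidney 2 and liver 20, and the liver peak listed there, at 114634011, lay 9545 bp from the nearest spleen peak. From 114675001 to 114676000 spleen held 11 reads, lung 0, brain 8, kidney 5 and liver 21. In normalised reads liver and spleen lay at 17.2 and 10.5 in the bin from 114634001. In the bin from 114675001 they lay close together, at 18.1 and 16.5, and no interval was computed for either pair. Kidney had no listed peak in either window. The Igh window as a whole was sparser than its flanks in lung, brain and kidney. In liver it was nearly level with them, at 4.86 reads per kb in the window against 5.03 in the flanks. Spleen was denser in the window, at 16.2 reads per kb against 5.44 in the flanks.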
